A study of Mus musculus with 11 samples.

Results

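The genes described here are 10 immediate early and AP-1 genes, namely Fos, Fosb, Jun, Junb, Jund, Atf3, Egr1, Egr2, Ier2 and Dusp1, out of 28944 transcript clusters measured on the arrays. They were chosen by symbol, each had 1 row in the deposited table, and all 10 had a mean signal above the median of all rows. The samples were Klf5 knockout (KO) and Klf5 wild-type (WT) mouse bone marrow on the C57BL/6 strain. Both genotypes carry the allele that the labels spell MxlCre, a Cre transgene under an interferon-inducible promoter, and the labels name neither the inducing agent nor age or sex. Low density marrow was separated on Histopaque, stained for LSK cells (lineage-negative, Sca-1-positive, Kit-positive stem cells and early progenitors) and sorted, and total RNA was read on Affymetrix Mouse Gene 1.0 ST arrays.

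Immediate early genes are transcribed within minutes of a stimulus without new protein synthesis, because the factors that switch them on are already present and are activated by kinases. Fos and Jun family proteins pair through leucine zippers to form AP-1, the Egr proteins are zinc-finger factors, and Dusp1 is a phosphatase that ends MAP kinase signalling. In blood and marrow cells these transcripts are also known to rise during tissue dissociation and flow sorting, so that their level can carry a trace of handling.

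The 9 arrays that were normalized together hold KO replicates 2 to 5 and WT replicates 2 to 6. KO replicate 1 and WT replicate 1 form a separately normalized table, and their values are set beside the others with no test. On the log2 scale, the array medians ranged over 5.93 to 6.03 and those of the negative controls over 5.27 to 5.62. The 95th percentile of the negative controls was 8.76 to 9.34 per array. All 10 genes lay above the negative-control median in every array, but only Fosb, Jun and Dusp1 had a group mean above 8.88, the 95th percentile of the control rows' means. All 18 LSK marker genes examined had a median signal above the negative-control median. Kit, the stem cell factor receptor, was at 10.04 ± 0.19 in KO (SD, n = 4) and 10.22 ± 0.11 in WT (SD, n = 5). Ly6a, which encodes Sca-1, was at 7.59 ± 0.85 in KO (SD, n = 4) and 7.67 ± 0.55 in WT (SD, n = 5). Klf5 itself was at 6.69 ± 0.08 in KO (SD, n = 4) and 6.89 ± 0.11 in WT (SD, n = 5), a difference of -0.20 without overlap of the groups (limma adjusted p = 0.916). Groups without overlap and with KO the lower were found in 0.726% of all rows. The Klf5 probe set is a limited check of the labels, because the position of the probes relative to the deletion is unknown here. KO replicates 2 and 5 and WT replicates 2 and 6 had high Hbb-b1, the adult beta globin, at 9.25 to 10.68, against 6.39 to 7.43 in the other 5 arrays.

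Promoter stretches of 6 of the genes are shown because they hold the sequence element that most of the 10 genes have near their starts. Each is the 150 bases before the annotated start in RefSeq GRCm38.p6, written 5′ to 3′ on the gene's strand, with matches to the searched motifs in capitals (TGACG reads CGTCA where it lies on the other strand).
Fos, chr12:85473740-85473889, plus strand: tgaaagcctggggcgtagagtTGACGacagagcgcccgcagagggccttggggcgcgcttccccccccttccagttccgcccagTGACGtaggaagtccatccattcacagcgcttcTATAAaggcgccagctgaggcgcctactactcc
Fosb, chr7:19310046-19310195, minus strand: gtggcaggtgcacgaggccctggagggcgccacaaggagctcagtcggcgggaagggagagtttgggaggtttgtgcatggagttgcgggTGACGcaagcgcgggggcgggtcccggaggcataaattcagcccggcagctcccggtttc
Junb, chr8:84978749-84978898, minus strand: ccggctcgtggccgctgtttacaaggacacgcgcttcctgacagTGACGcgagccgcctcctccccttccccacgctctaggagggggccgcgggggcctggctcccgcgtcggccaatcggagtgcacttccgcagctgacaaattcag
Atf3, chr1:191183334-191183483, minus strand: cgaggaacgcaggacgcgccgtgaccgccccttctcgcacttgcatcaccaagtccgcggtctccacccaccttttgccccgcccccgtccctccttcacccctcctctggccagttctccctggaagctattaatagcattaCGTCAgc
Egr2, chr10:67537780-67537929, plus strand: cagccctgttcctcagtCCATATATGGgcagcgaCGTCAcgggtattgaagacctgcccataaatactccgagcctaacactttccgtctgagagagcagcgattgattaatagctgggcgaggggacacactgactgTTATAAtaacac
Dusp1, chr17:26508473-26508622, minus strand: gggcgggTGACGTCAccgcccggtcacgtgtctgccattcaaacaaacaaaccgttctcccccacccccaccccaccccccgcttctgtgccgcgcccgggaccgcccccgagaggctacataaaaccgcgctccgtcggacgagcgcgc

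Motifs were searched on both strands in the 250 bases before the start, for 8 genes. Ier2 had no entry among the promoter sequences used, and Egr1, on chromosome 18, was left out of the search. The core TGACG of the cyclic AMP response element, which CREB and ATF proteins are known to bind, was found in 6 of 8, against 17.8% of 32851 promoter windows. These are the 6 printed above. The full site TGACGTCA, which contains TGACG on both strands, was found in Dusp1 alone among the 8, against 1.55% of windows. A CArG box, the element of serum response factor, was found in Egr2, against 1.47% of windows, the Egr2 window being the one of its 5 listed starts that held the most of the motifs. TATAA was found in Fos and Egr2, against 22.8% of windows, and the AP-1 site TGANTCA in 0 of 8, against 6.75%. These are letter matches only, in 1 short window per gene.

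Fos family transcripts overlapped fully between the genotypes. Fos, the AP-1 subunit that gives the family its name, had log2 signals of 8.36, 8.53, 8.74 and 8.49 in KO replicates 2 to 5, and 8.34, 8.45, 8.80, 8.44 and 7.96 in WT replicates 2 to 6. The highest and the lowest value were both in WT, in replicates 4 and 6. The KO minus WT difference was 0.13 (95% interval -0.22 to 0.48, limma adjusted p = 0.922).

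Fosb, a close relative of Fos that also pairs with Jun proteins, was at 9.63, 9.86, 9.88 and 9.97 in KO replicates 2 to 5, and at 9.65, 9.92, 10.07, 9.20 and 8.87 in WT replicates 2 to 6. The KO values lay close together, whereas WT replicates 5 and 6 were low. The difference was 0.30 (95% interval -0.22 to 0.82, limma adjusted p = 0.916).

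Jun, the partner of Fos in AP-1, was at 10.93, 10.79, 10.97 and 10.53 in KO replicates 2 to 5, and at 10.38, 11.33, 11.37, 10.79 and 10.24 in WT replicates 2 to 6. WT arrays stood on both sides of all KO arrays, with replicates 3 and 4 above them and replicates 2 and 6 below. The difference was -0.02 (95% interval -0.57 to 0.53, limma adjusted p = 0.994), and it changed sign in 3 of the 9 fits that left out 1 array, to 0.071 without KO replicate 5, 0.107 without WT replicate 3 and 0.117 without WT replicate 4.

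Junb, a Jun protein that can restrain AP-1 activity, varied little, from 6.56 to 6.62 in KO and from 6.43 to 6.85 in WT. It had an identical signal of 6.62 in KO replicates 2, 4 and 5 and WT replicate 2. Jund, the Jun protein that is present in resting cells, was at 7.54, 7.57, 7.54 and 7.36 in KO replicates 2 to 5, and at 7.54, 7.87, 7.63, 7.54 and 7.20 in WT replicates 2 to 6. Of these, KO replicates 2 and 4 and WT replicates 2 and 5 were identical. The differences were -0.06 (95% interval -0.27 to 0.15, limma adjusted p = 0.935) for Junb and -0.05 (-0.33 to 0.23, limma adjusted p = 0.956) for Jund, and that of Jund was 0.025 without WT replicate 3. Such shared values were common on these arrays: in 57.5% of all rows 2 or more arrays had exactly the same deposited value, and in 14.7% 4 or more did. RMA fits each array's level by median polish, which can return 1 level for several arrays. Egr2 shared a value among 3 arrays and Egr1 among 2, and the other 6 genes had no shared value.

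Atf3, a stress-induced member of the wider AP-1 family that is known to repress as well as activate, was at 7.10, 7.72, 8.03 and 7.59 in KO replicates 2 to 5. In WT replicates 2 to 6 it was at 6.68, 8.01, 7.67, 7.49 and 7.13. KO replicate 2 and WT replicates 2 and 6 were the 3 lowest, in both genotypes arrays with high Hbb-b1. The difference was 0.21 (95% interval -0.40 to 0.82, limma adjusted p = 0.927).

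The Egr genes overlapped between genotypes as well. Egr1, which is induced through serum response factor, was at 8.15, 8.84, 8.84 and 8.87 in KO replicates 2 to 5, and at 8.58, 9.26, 9.303, 9.01 and 8.06 in WT replicates 2 to 6. KO replicate 2 stood well below the other 3 KO arrays and beside WT replicate 6. The difference of -0.16 (95% interval -0.77 to 0.44, limma adjusted p = 0.938) became 0.011 without KO replicate 2.

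Egr2, known for its role in myelination and in lymphocyte restraint, was at 6.23, 6.88, 6.21 and 6.21 in KO replicates 2 to 5, and at 5.80, 5.75, 6.88, 6.21 and 6.18 in WT replicates 2 to 6. One array of each genotype was high, KO replicate 3 and WT replicate 4. The difference was 0.22 (95% interval -0.32 to 0.76, limma adjusted p = 0.919), and 0.053 without KO replicate 3.

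Ier2, an early response gene of growth factor signalling, had the widest range of the 10 genes over the 9 arrays, 4.50-fold. It was at 5.88, 6.95, 7.29 and 6.96 in KO replicates 2 to 5, and at 6.74, 8.05, 7.76, 6.96 and 6.82 in WT replicates 2 to 6. KO replicate 2 was the lowest array and WT replicates 3 and 4 the highest. The difference was -0.49 (95% interval -1.29 to 0.30, limma adjusted p = 0.916), and -0.198 without KO replicate 2.

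Dusp1, which removes phosphate from ERK, p38 and JNK kinases and is itself induced by them, was the member with the smallest p. It was at 10.17, 9.55, 9.50 and 9.87 in KO replicates 2 to 5, and at 9.56, 9.50, 9.50, 9.11 and 9.28 in WT replicates 2 to 6. KO replicates 2 and 5 lay above every WT array, while KO replicates 3 and 4 lay below WT replicate 2, so the groups overlapped. The mean was 9.77 ± 0.31 in KO (SD, n = 4) and 9.39 ± 0.19 in WT (SD, n = 5). The difference was 0.38 (95% interval 0.04 to 0.73), a 1.30-fold higher signal, with an unadjusted limma p of 0.0335 and a limma adjusted p = 0.916. Without KO replicate 2 it was 0.249 with an interval of -0.05 to 0.55.

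**Figure D1:**
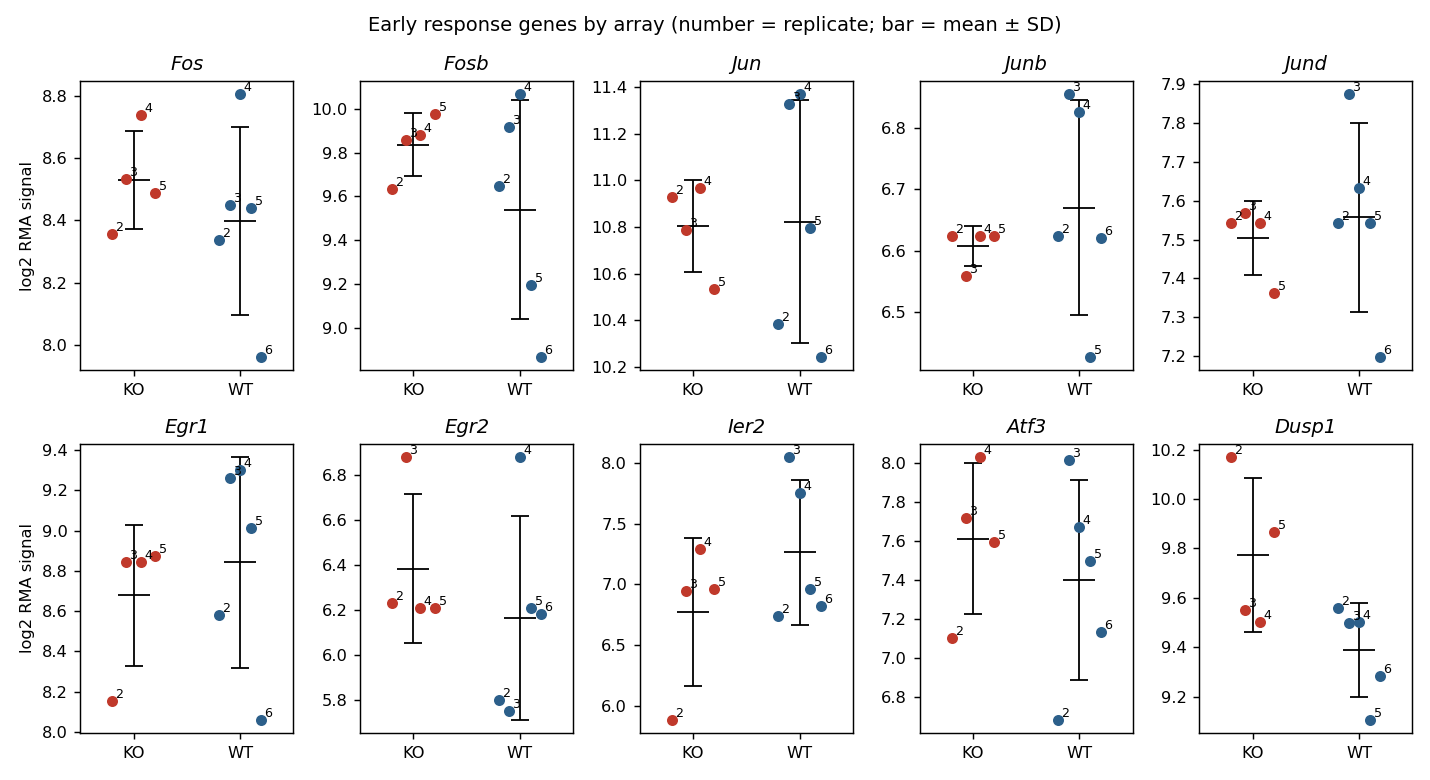
Log2 RMA signal of each of the 10 genes (vertical axis, own scale per panel) in 4 KO arrays (left, red) and 5 WT arrays (right, blue), with the replicate number beside each point and the mean ± SD as a bar. The KO and WT points overlap in all 10 panels, and KO replicate 2 is the lowest KO array for Egr1 at 8.15 and Ier2 at 5.88 and the highest array for Dusp1 at 10.17.

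Over the 10 genes, 5 had higher and 5 lower means in KO, with a median difference of 0.06, against -0.02 over all 28944 rows, of which 44.1% were higher and 55.9% lower. In all 10 the genotypes overlapped, where 0.985% of all rows had groups that did not overlap (0.259% with KO the higher and 0.726% with KO the lower). At an unadjusted limma p under 0.05, 1 of the 10 was higher in KO (1.45% of all rows) and 0 were lower (2.63% of all rows), together 1 of 10 against 4.08% of all rows. After Benjamini-Hochberg adjustment 0 passed, as for 0.0% of all rows. For 9 of the 10 genes the 95% interval excluded a 2-fold signal difference in either direction, the exception being Ier2. In sorted bulk RNA, fewer cells of a type and less RNA per cell cannot be told apart.

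**Figure D2:**
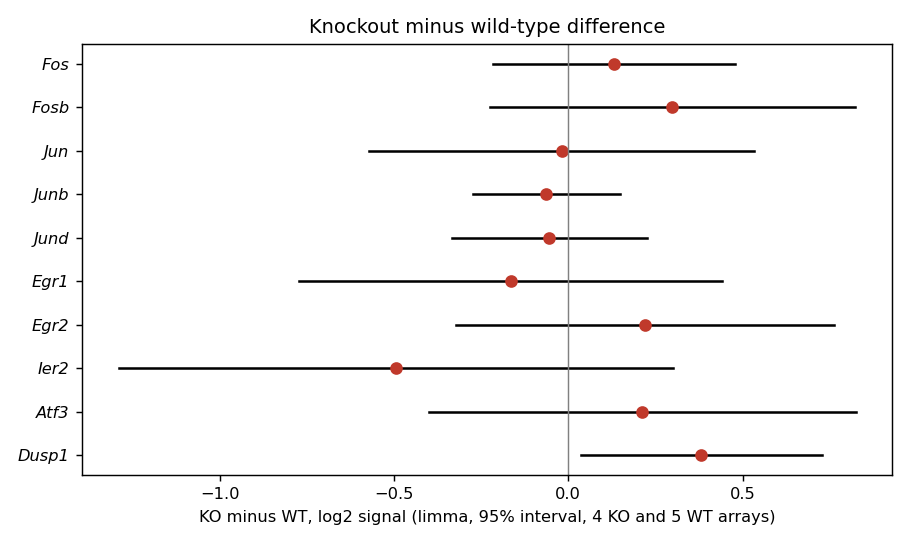
KO minus WT difference of log2 signal for each gene (points) with its 95% limma interval (lines), from 4 KO and 5 WT arrays. The intervals hold 0 for 9 of the 10 genes, and Ier2 has the widest, from -1.29 to 0.30.

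The spread lay between arrays rather than between genotypes. The mean deviation of the 10 genes from their 9-array means was -0.16, 0.10, 0.14 and 0.02 in KO replicates 2 to 5, and -0.24, 0.28, 0.36, -0.11 and -0.39 in WT replicates 2 to 6. WT replicate 4 was above the 9-array mean in 9 of the 10 genes and WT replicate 6 in 0. The WT arrays covered a wider range than the KO arrays for 8 of the 10 genes, the others being Ier2 and Dusp1, without a test of that difference and with 1 more array in WT.

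The genes varied together over the 9 arrays. Pearson's r was above 0 in 40 of 45 pairs of genes and above 0.5 in 21, with a median of 0.47. Over all pairs among 11714 rows with means in the range of these genes, the median was 0.03 and 12.98% were above 0.5. The highest correlations were between Egr1 and Ier2 (r = 0.82), Jun and Jund (r = 0.82) and Fos and Fosb (r = 0.82). These are descriptions over 9 arrays, which share each array's RNA and hybridisation. With the genotype means removed, the median over the 45 pairs was 0.52.

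Dusp1 and Egr2 were apart from this pattern. The correlation of Dusp1 was -0.49 with Ier2, -0.30 with Egr1 and -0.17 with Atf3, and at most 0.46, with Fosb. The other 2 pairs below 0 were Egr2 with Jund, at -0.10, and Egr2 with Junb, at -0.06. The highest r of Egr2 was 0.45, with Fos. Among the 36 pairs without Dusp1 the median r was 0.54.

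The 4 arrays of high Hbb-b1 had the lower median in 8 of the 10 genes, against 53.6% of all rows; the exceptions were Dusp1 and Junb. Fos was at 7.96 to 8.49 in the arrays of high Hbb-b1 and at 8.44 to 8.80 in the other 5, which overlap by a narrow margin. Within WT, 5 genes (Fos, Jun, Egr1, Ier2 and Atf3) had both arrays of high Hbb-b1 below the other 3, against 20.5% of all rows. Within KO, 2 genes (Fos and Atf3) had both such arrays below the other 2, against 13.4% of all rows. In 0 of the 10 did all 4 such arrays lie below the other 5, against 1.73% of all rows. Since Hbb-b1, Xist, Y-linked genes and the negative-control medians each split the 9 arrays into separate sets, no correlation over all arrays is given for them. Xist was at 4.74 to 5.47 in WT replicates 2, 3 and 4 and at 9.59 to 11.12 in the other 6 arrays, and the mean of 4 Y-linked genes was at 4.12 to 4.42 in KO replicates 3 and 4 and WT replicate 5 and at 7.09 to 8.04 in the other 6. KO replicates 2 and 5 and WT replicate 6 had both signals. Their part in the levels of the 10 genes was not tested.

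**Figure D3:**
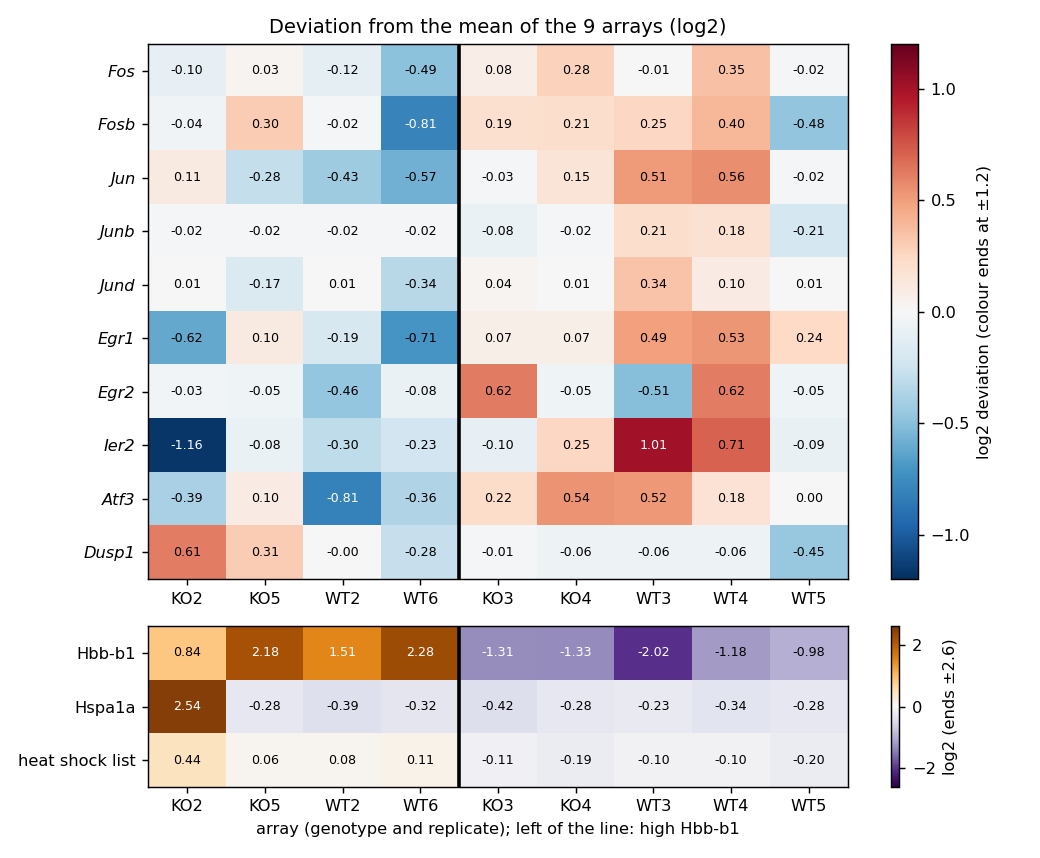
Deviation of each gene from its mean over the 9 arrays, in log2 units (colour and printed number), with Hbb-b1, Hspa1a and the mean of 15 heat shock genes below. Arrays left of the line have high Hbb-b1, with KO before WT on each side; the columns of WT replicates 3 and 4 are mostly red and that of WT replicate 6 is mostly blue.

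Signals of B cell genes ran against those of Fos and Jun. The mean of 14 B cell markers, 10 of which had a median above the negative controls, was 5.51 to 6.07 in KO arrays and 5.59 to 6.83 in WT arrays, with the highest value in WT replicate 6. It moved with the Hbb-b1 sets, at 5.86 to 6.83 in the 4 arrays of high Hbb-b1 and 5.51 to 5.63 in the other 5, and the part of those sets in the relations was not tested. Fos correlated with it at r = -0.84 (exact permutation p = 0.0061, adjusted p = 0.092 over 30 relations) and rho = -0.77 (exact permutation p = 0.021, adjusted p = 0.30). Jun correlated with it at r = -0.78 (exact permutation p = 0.0061, adjusted p = 0.092) and rho = -0.67 (exact permutation p = 0.059, adjusted p = 0.35). Without the 2 arrays farthest from the median of the B cell mean, r was -0.41 for Fos and -0.53 for Jun, so the relations rested in part on those arrays. Jund (r = -0.78, exact permutation p = 0.015, adjusted p = 0.12) and Egr1 (r = -0.72, exact permutation p = 0.024, adjusted p = 0.12) ran the same way. Their rho was -0.72 for Jund (exact permutation p = 0.030, adjusted p = 0.30) and -0.49 for Egr1 (exact permutation p = 0.18, adjusted p = 0.39). Without the same 2 arrays r was -0.60 for Jund and -0.41 for Egr1. Atf3 had the lowest rho, at -0.83 (exact permutation p = 0.0083, adjusted p = 0.25), with r = -0.64. None of the 30 two-sided relations, of 10 genes to the B cell, interferon and heat shock list means, passed adjustment. With the interferon list, r was -0.56 for Fos (exact permutation p = 0.12, adjusted p = 0.25). Which cells of the sorted fraction carried these transcripts was not tested.

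KO replicate 2 carried a heat shock signal. Hspa1a, the stress-induced form of the Hsp70 chaperone, was at 9.80, 6.85, 6.98 and 6.98 in KO replicates 2 to 5, and at 6.87, 7.03, 6.92, 6.98 and 6.94 in WT replicates 2 to 6. The signal in KO replicate 2 was 6.83-fold that of the next highest array. Hsph1, a co-chaperone of Hsp70, was also highest in that array, at 9.52, against 7.63 to 8.41 in the other KO arrays and 7.07 to 8.69 in WT arrays. Of 15 heat shock and dissociation stress genes, 6 had their highest value of the 9 arrays in KO replicate 2, against 15.5% of all rows.

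The same array had low values of many early response genes outside the 10. Of 43 other early response genes, 18 had their lowest value of the 9 arrays in KO replicate 2, against 12.9% of all rows, and 4 their highest. Myc, the growth-promoting transcription factor, was at 10.01 there, against 10.28 to 10.65 in the other KO arrays and 10.57 to 10.77 in WT arrays. Of the 10 genes themselves, 1 (Ier2) had its lowest value in KO replicate 2, against 12.9% of all rows. Another 1 (Dusp1) had its highest there, against 15.5% of all rows. The heat shock mean was also higher in the other arrays of high Hbb-b1, at 9.63 in KO replicate 5, 9.65 in WT replicate 2 and 9.68 in WT replicate 6, against 9.37 to 9.47 in the 5 arrays of low Hbb-b1. The co-chaperone gene Dnaja1 separated the sets, at 11.10 to 11.47 in the arrays of high Hbb-b1 and 10.39 to 10.67 in the others. The part of the Hbb-b1 sets in the relations below was not tested. Over the 9 arrays Dusp1 correlated with the heat shock mean at r = 0.75 (exact permutation p = 0.027, adjusted p = 0.12) and rho = 0.50 (exact permutation p = 0.18, adjusted p = 0.39), and at r = 0.72 without the 2 arrays farthest from the median. Ier2 and Egr1 ran the other way, with r = -0.76 for Ier2 (exact permutation p = 0.023, adjusted p = 0.12; rho = -0.58, exact permutation p = 0.11) and r = -0.75 for Egr1 (exact permutation p = 0.015, adjusted p = 0.12; rho = -0.59, exact permutation p = 0.098). Without the 2 farthest arrays these were -0.34 for Ier2 and -0.44 for Egr1.

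**Figure D4:**
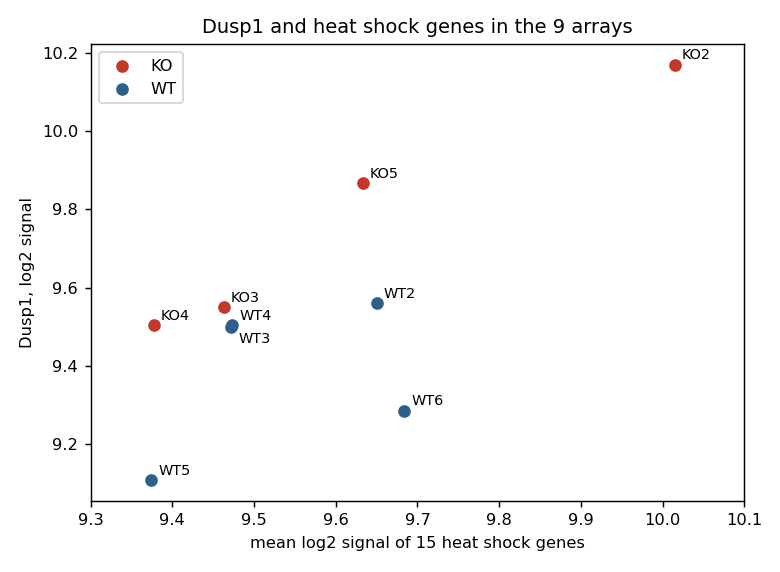
Dusp1 log2 signal (vertical axis) against the mean log2 signal of 15 heat shock genes (horizontal axis) in 4 KO arrays (red) and 5 WT arrays (blue). KO replicate 2 lies at the upper right, with Dusp1 at 10.17 and the heat shock mean at 10.02, and KO replicate 5 is next in Dusp1, at 9.87.

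The pair of arrays normalized apart gave a different picture from the group means. All 10 genes were higher in KO replicate 1 than in WT replicate 1, against 51.3% of all rows, with a median difference of 0.45, against 0.01 over all rows. Fosb was at 10.69 in KO and 9.72 in WT, Egr1 at 8.48 in KO and 7.77 in WT, and Atf3 at 8.21 in KO and 7.51 in WT. Fos was at 9.16 in KO and 8.55 in WT and Jun at 10.35 in KO and 9.82 in WT. These 5 were higher by over 0.5, a step that 1.13% of all rows passed in that direction, and 0 of the 10 were lower by over 0.5, against 1.18% of all rows. The other 5 differed by 0.10 (Ier2) to 0.38 (Dusp1). With 1 array per genotype there is no test and no error for these values.

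KO replicate 5 and WT replicate 6, a pair picked out earlier from these data as the one most like the separate arrays, showed the same direction. All 10 genes were higher in KO replicate 5, against 47.3% of all rows, and 4 of them by over 0.5, against 1.33%. WT replicate 6 was the lowest of the 9 arrays for Fos, Fosb, Jun, Jund and Egr1. It ranked 7th or 8th for the other genes, so the shared direction follows in part from the choice of that array. Fosb differed by 1.11, Egr1 by 0.81, Dusp1 by 0.58 and Fos by 0.53, whereas Junb differed by 0.003. The B cell mean was at 6.07 in KO replicate 5 and 6.825 in WT replicate 6, and the neutrophil mean at 6.715 in KO replicate 5 and 6.26 in WT replicate 6; their part in the difference was not tested. Both arrays have the number 5 in their sample descriptions, and over all rows their deviations from the genotype means correlated at r = 0.40. The pair was not chosen independently of such values, and whether the arrays of the 2 pairs share RNA or animals is not given by the labels.

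In the separate pair the early response genes outside the 10 moved the same way. Of 43 such genes 38 were higher in KO replicate 1, against 51.3% of all rows, with a median of 0.18. By over 0.5, 2 were higher, against 1.13% of all rows. These 2 were Btg2, an antiproliferative early gene, at 9.36 in KO and 8.68 in WT, and Plk2, a polo-like kinase, at 7.97 in KO and 7.43 in WT. Of the Nr4a nuclear receptors, Nr4a1 differed by 0.445 and Nr4a2 by 0.448, while Nr4a3 was at or below the negative-control median in all 9 other arrays. Of 13 other AP-1 genes 12 were higher, with a median of 0.24. Between KO replicate 5 and WT replicate 6 the counts were smaller. There 30 of the 43 and 8 of the 13 were higher in KO, against 47.3% of all rows. Heat shock genes did not follow: 1 of 15 was higher in KO replicate 1, with a median of -0.09. Markers of other cells differed in the same pair, with the B cell mean at 6.84 in KO and 7.69 in WT (1 of 14 higher) and the neutrophil mean at 7.55 in KO and 7.13 in WT (13 of 13 higher). Their part in the difference was not tested.

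**Figure D5:**
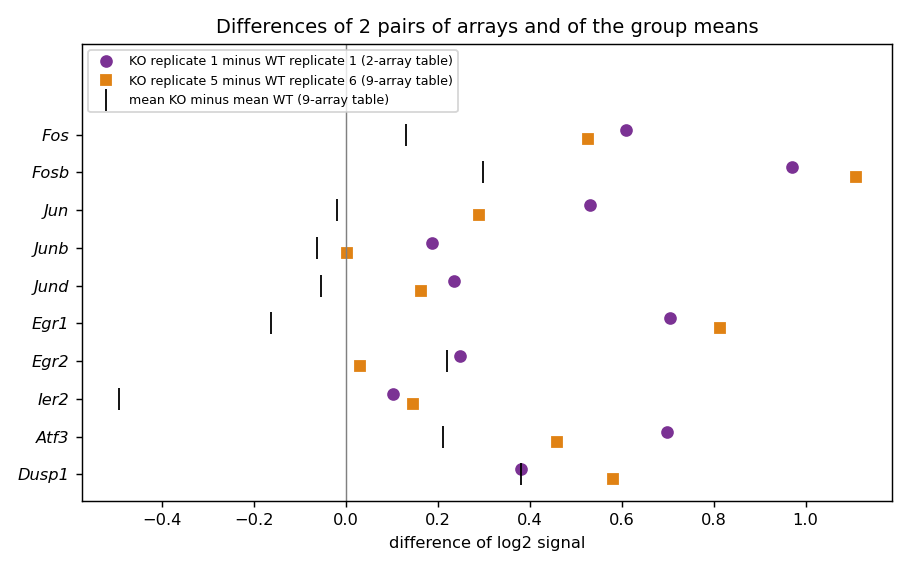
Difference of log2 signal (horizontal axis) for each gene, as KO replicate 1 minus WT replicate 1 (purple circles), KO replicate 5 minus WT replicate 6 (orange squares) and mean KO minus mean WT of the 9 arrays (black bars). All circles and squares lie above 0, with Fosb at 0.97 and 1.11, while 5 of the 10 black bars lie below 0.

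Among the 9 arrays the other lists showed no such shift. Of the 43 early response genes 19 had a higher and 24 a lower mean in KO (median difference -0.04). An unadjusted limma p under 0.05 was found for 0 of the 43, against 4.08% of all rows. Those with the smallest p were Klf4, a relative of Klf5, at -0.15, Myc at -0.24, Egr3 at -0.18 and the small GTPase gene Rhob at -0.25. Without KO replicate 2, 27 had a higher and 16 a lower mean (median difference 0.04). Of 13 other AP-1 genes 3 had a higher and 10 a lower mean (median difference -0.105). Here too 0 had an unadjusted limma p under 0.05, against 4.08% of all rows. Mafg, a small Maf protein, was at -0.12, Fosl2, a Fos relative, at -0.15, Jdp2, a repressor of AP-1, at -0.15 and Maff at -0.195. Of the 15 heat shock genes 9 had a higher and 6 a lower mean (median difference 0.04), against 6 higher and 9 lower without KO replicate 2. At an unadjusted limma p under 0.05, 1 of them was lower, the haem oxygenase gene Hmox1, at -0.25, against 2.63% of all rows. Hspd1 was at 0.24, Hsph1 at 0.67, Hsp90aa1 at 0.18 and Hspa1a at 0.70. Without KO replicate 2 Hsph1 was at 0.31 and Hspa1a at -0.01. None of these passed adjustment (limma adjusted p of at least 0.907 for every row).

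The genes whose pattern was most like Fos over the 9 arrays, among 11667 named rows above the median signal, were Kdsr (r = 0.94), a sphingolipid synthesis enzyme, Prr13 (0.94), Tpm3 (0.94), a tropomyosin, and Btg2 (0.93). They were followed by the kinase gene Tnik (0.91), Omp (0.89), LOC638407 (0.89), the scaffold gene Erbin (0.88), the ubiquitin ligase gene Traf7 (0.87) and the Mediator subunit gene Med27 (0.86). Some varied far less than Fos, which went from 7.96 to 8.80. Tpm3 went from 11.74 to 11.90, Omp from 6.26 to 6.46 and Erbin from 10.01 to 10.26, whereas Traf7 went from 6.55 to 7.53. Tpm3 and Omp also had a value shared by several arrays. Btg2 had 9.02, 9.63, 9.56 and 9.41 in KO replicates 2 to 5, and 9.02, 9.36, 9.85, 9.04 and 8.62 in WT replicates 2 to 6. It was first of all candidates by Spearman's rho, at 0.98, and the other 9 were not among the first 10 by that measure. In the separate pair of arrays, where Fos differed by 0.61, Btg2 differed by 0.69 and the other 9 by -0.15 to 0.04. Of the early response list, Nr4a1 was next after Btg2, at r = 0.815.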

How the data were processed

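Total RNA of sorted LSK cells (RNeasy Micro kit) was labelled with biotin and hybridised, per the labels' protocols. The authors deposited log2 RMA signals in a table of 9 arrays and one of 2, normalized separately. Per the file headers the signals are at gene level under the default setting, and the submitters' processing notes name Affymetrix Expression Console (version not given in the sources used). One value table with 1 column per sample equalled the RMA columns within 5e-05 and gave each array its replicate number; the numbers in the column names differ from those of the sample titles.

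Of 35556 rows 6612 control rows were left out. Differences are KO minus WT by limma 3.58.1 (lmFit, eBayes, two-sided) in R 4.3.3, adjusted by Benjamini-Hochberg over 28944 rows, at a threshold of 0.05; the series' design text names a t-test, which was an alternative. The fit was tested on simulated data. The members, lists and tests were chosen with earlier results of these data known. Named genes are the 10 members, per pathway list the 4 of smallest p with a mean above the median of all rows, and the 10 genes of highest r with Fos; others (such as Btg2, Plk2 and the Nr4a genes in the separate pair, and Hspa1a in KO replicate 2) were chosen after their values were seen. The LOC gene stays because the rule left out only Gm-numbered predicted genes. Symbols are the file's, updated through RefSeq accessions of GRCm38.p6, which 22114 rows matched. Hspa1b was not found. Measures whose largest gap, leaving at least 2 arrays on each side, exceeded 33.3% of the range were taken as separate sets. The number of arrays limits the precision, and whether the arrays came from different animals is not stated in the labels, so p-values reflect array spread that could be technical. Figures were drawn with matplotlib 3.10.9.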

Additional observations from a re-analysis of the deposited data

Results flagged for a closer look

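In 60 groups of 4 or 5 arrays screened (30 genes in each genotype), 8 had a highest or lowest array separated by a wide gap. About 3 would be expected by chance at the screen's rate (1 in 20) if arrays shared no values. Of the 10 immediate early and AP-1 genes, Egr1 was low in KO replicate 2 at 8.15 (other KO arrays 8.84 to 8.87), Egr2 high in KO replicate 3 at 6.88 (6.21 to 6.23), Jund low in KO replicate 5 at 7.36 (7.54 to 7.57) and Junb low in KO replicate 3 at 6.56, where the other 3 KO arrays shared 1 value of 6.62. The other KO arrays also include a shared value in Jund, Egr1 and Egr2. Hspa1a was high in KO replicate 2 at 9.80 (6.85 to 6.98), and Mafg low in the same array at 7.36, where the other 3 KO arrays shared a value of 7.51. Klf4 was low in KO replicate 4 at 6.22 (6.36 to 6.37), and Dusp9 high in WT replicate 4 at 6.30 (5.93 to 5.96). The other arrays of the groups of Hspa1a, Klf4 and Dusp9 also include a shared value. Shared values narrow the rest of a group, so that rate does not hold for the groups listed here.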

How the results depend on the processing

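The differences of the 10 genes were recomputed under other normalizations, filters, blocks and weights and with each array left out. With each array left out they lay between 0.021 and 0.232 for Fos, 0.130 and 0.431 for Fosb, -0.165 and 0.117 for Jun, -0.123 and -0.017 for Junb, -0.144 and 0.025 for Jund, -0.360 and 0.011 for Egr1, 0.053 and 0.399 for Egr2, -0.668 and -0.198 for Ier2, 0.033 and 0.381 for Atf3, and 0.249 and 0.472 for Dusp1. Jun changed sign with median centring (0.015), with all 11 arrays and a table term (0.082) and with array weights (0.131), and array weights also turned Jund (0.004) and Egr1 (0.052). With array weights 8 of the 10 genes were higher in KO, in place of 5; the lowest weights were 0.509 in WT replicate 5, 0.60 in KO replicate 2 and 0.751 in WT replicate 3. With 1 array left out, 5 to 7 of the 10 were higher, with 7 without WT replicate 3 and 6 without KO replicate 2, KO replicate 5 or WT replicate 4. In limma no gene passed adjustment under any setting, with 1181 rows at unadjusted p under 0.05 in the fit reported, 798 to 1698 with 1 array left out and 1150 by the methods' t-test. Median centring gave 695 higher and 445 lower at that level, in place of 420 and 761. The filter on dim rows kept 2537 rows, among them Fosb, Jun and Dusp1, so it gave no count over the 10. None of the 10 has a further row to compare.

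The deviations of arrays with the same number in their titles correlated at r = 0.13, 0.11, 0.12 and -0.24. Those of arrays with the same number in their descriptions correlated at -0.05, 0.07, 0.12 and 0.40. No steady pairing by either number was seen in these values, but a pairing with little shared spread would not show in them. With a replicate block by title number 1526 rows had an unadjusted p under 0.05 and 0 passed (WT replicate 6 has no partner and adds nothing). Under it Egr1 differed by -0.36 (limma unadjusted p = 0.012), Ier2 by -0.606 (0.0223) and Dusp1 by 0.355 (0.0743), so that at unadjusted p under 0.05 the genes lower in KO were Egr1 and Ier2 and Dusp1 was no longer called; each had a limma adjusted p of 0.854. By the number in the descriptions, where WT replicate 2 has no partner, it was 1679 and 0, with Dusp1 at 0.424 (limma unadjusted p = 0.0171). Neither block changed a call after adjustment. Of the 10 genes most like Fos, 1 was among the first 10 by Spearman's rho and 5 with the genotype means removed.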

Other observations

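Kinases and factors upstream of the early response genes and inhibitors of MAP kinase signalling did not pass adjustment either (limma adjusted p of at least 0.907 for every row). Of 16 upstream genes 11 had a higher and 5 a lower mean in KO (median difference 0.105). Mapk14, the p38 alpha kinase, was at 8.84 in KO and 8.52 in WT, a difference of 0.32 with an unadjusted limma p of 0.0326. It was the 1 of the 16 higher in KO at an unadjusted limma p under 0.05, against 1.45% of all rows. Mapk8, the JNK1 kinase, differed by 0.31. Rps6ka3, a kinase downstream of ERK, differed by 0.43 and Mapk3, which encodes ERK1, by 0.24. Of 10 inhibitor genes 5 had a higher and 5 a lower mean (median difference -0.03). Spred2, an inhibitor of Ras signalling, was at 8.74 in KO and 8.22 in WT with no overlap and an unadjusted limma p of 0.0457. It was the 1 of the 10 without overlap, against 0.259% of all rows with KO the higher. It was also the 1 higher at an unadjusted limma p under 0.05, against 1.45% of all rows. Dusp9, Spred1 and Dusp14 differed by -0.13, 0.14 and -0.06. In the separate pair of arrays 9 of the 16 upstream genes and 5 of the 10 inhibitors were higher in KO, against 51.3% of all rows. Of the immediate early and AP-1 genes 10 of 10 were higher there.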
